A study of Mus musculus with 4 samples.

Results

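The genes described here encode the NF-kB subunits (Nfkb1, Nfkb2, Rel, Rela and Relb), the classical inhibitor IkBα (Nfkbia), the nuclear IkB proteins (Nfkbid, Nfkbiz and Bcl3) and the deubiquitinase A20 (Tnfaip3). They were taken by name: each probe carrying one of these 10 gene symbols was read on all 4 arrays. This gave 22 probes of 56605, for 10 genes of 32562. Of the 22 probes, 20 were well above background on the 4 arrays. The other 2, a probe of Nfkbiz (ENSMUST00000139373) and a probe of Bcl3 (ENSMUST00000152768), were well above background on none, so no difference was computed for them.

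The study asked how the nuclear receptors Nr4a1, Nr4a2 and Nr4a3 take part when naive CD4+ T cells become helper or induced regulatory T (iTreg) cells. Naive T cells, and iTreg cells after 3 h in culture, were put on single-colour arrays, in WT and in Nr4a-TKO, with 1 array per condition. Nr4a-TKO cells lack all Nr4a members and were derived from C57BL/6J mice with floxed Nr4a1, floxed Nr4a2 and Nr4a3-/- alleles. The driver of the Cre recombinase is not given in the sources used here. Naive cells were sorted from spleen and lymph nodes as CD4+, CD25 low, CD44 low and Foxp3-, among other markers, and both genotypes were sorted as Ly5.2+ from irradiated Rag2-/- recipients of bone marrow. For Nr4a-TKO cells the transplanted marrow was a mixture of both genotypes, and for WT cells it was WT alone, so the genotypes differ in the marrow environment too. The iTreg arrays carry the same kind of cells after 3 h on plate-bound anti-CD3 (2 μg/ml) and anti-CD28 (0.5 μg/ml), with antibodies against IFN-γ and IL-4, IL-2 (10 ng/ml) and TGF-β1. The labels give TGF-β1 as 0.2 or 0.5 ng/ml and do not say which dose the arrays had, nor how many mice were pooled. No array of naive cells cultured without these stimuli was used here, so the parts of the antibodies, the cytokines and the culture itself in a change cannot be told apart.

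NF-kB factors are dimers that an IkB protein holds in the cytoplasm. Signals from the T cell receptor and CD28 pass through protein kinase C-θ, BCL10 and MALT1 to the IkB kinases, which mark IkBα for destruction and set RelA and c-Rel dimers free to enter the nucleus. The dimers then bind kB sites beside cytokine, survival and co-stimulation genes and beside genes of their own inhibitors, and A20 removes the ubiquitin chains that keep the kinases active. Protein degradation and nuclear entry are not seen on an expression array, which reports transcripts alone.

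The promoters are shown because many NF-kB genes are themselves known NF-kB targets. RefSeq promoter windows of GRCm38.p6, each from 250 bases before to 50 bases after a transcript start, were at hand for 7 of the 10 genes, with 12 windows in all. Nfkb1, Relb and Nfkbiz had no entry. The NF-kB consensus of 10 bases (3 G, a purine, 2 free bases, 2 pyrimidines and 2 C) was searched on both strands, and overlapping matches were joined. It was found in 8 of the 12 windows and for 6 of the 7 genes, Rela being the exception. Over all RefSeq windows of the same length the consensus was in 8.46% of 32851 promoters and for 9.55% of 27025 genes. A stretch around a match is given on the strand of the gene for each of the 6 genes, 5′ to 3′, with 1 match a line in capitals.
Nfkb2, chr19:46304668-46304738, plus strand: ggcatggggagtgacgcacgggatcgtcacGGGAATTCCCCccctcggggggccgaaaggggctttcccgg
Nfkb2, a later start, chr19:46305680-46305744, plus strand: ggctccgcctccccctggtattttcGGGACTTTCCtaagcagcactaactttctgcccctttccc
Rel, chr11:23771021-23771091, minus strand: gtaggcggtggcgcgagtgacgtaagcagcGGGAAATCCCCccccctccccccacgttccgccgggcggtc
Nfkbia, chr12:55492637-55492706, minus strand: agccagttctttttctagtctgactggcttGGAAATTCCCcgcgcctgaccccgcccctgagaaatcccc
Nfkbid, chr7:30422156-30422219, plus strand: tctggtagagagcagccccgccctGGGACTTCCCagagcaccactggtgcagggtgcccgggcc
Nfkbid, the same window, chr7:30422195-30422264, plus strand: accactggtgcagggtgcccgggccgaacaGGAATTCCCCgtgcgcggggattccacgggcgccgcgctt
Bcl3, chr7:19822736-19822783, minus strand: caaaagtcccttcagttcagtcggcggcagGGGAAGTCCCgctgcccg
Tnfaip3, chr10:19015496-19015565, minus strand: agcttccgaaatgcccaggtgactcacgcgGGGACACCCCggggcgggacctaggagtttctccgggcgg
Tnfaip3, the same window, chr10:19015391-19015452, minus strand: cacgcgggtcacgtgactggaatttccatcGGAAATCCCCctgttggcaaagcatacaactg

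The matches nearest to a start were those of Tnfaip3, from base -12 to -3, of Nfkb2, from -11 to -2 (in lower case in the first stretch above), and of Bcl3, which lies past its start from base 3 to 12. The match of Nfkb2 in the window of its later start is also in the window of the start before it. An Ets motif (AGGAAG, either strand) was in 4 of the 12 windows, for Rel, Nfkbid and Tnfaip3, against 35.4% of all promoters. Neither form searched of the motif of the Nr4a factors (AAAGGTCA and AAATGTCA, either strand) was in any of the 12 windows (0 of 12 each), against 1.51% and 1.53% of all promoters. None of these matches was measured as a bound site, and genes with the consensus moved little more often than other genes in WT cells. Of 1605 measured genes with it, 9.53% were more than 2-fold higher at 3 h, against 8.72% of 12707 genes without it.

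Values are given as log2 of the background-corrected and quantile-normalized intensity, and a difference as log2 of a ratio, where 1 is 2-fold. A gene is represented by its brightest probe on average, and for the 10 genes the other probes are given beside it. Levels of different probes were not compared, because a probe's intensity depends on its sequence. With 1 array per condition no difference has a spread between replicates, so none was tested and no p-value is given. The 285 to 287 probes with at least 5 spots on an array gave the spread between spots of 1 array. From it the SD of a log2 difference was put at 0.173 and that of a difference between changes at 0.245. These cover noise between spots, and neither differences between arrays nor differences between mice.

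The well-above-background share of probes was between 64.9% and 67.6% on the 4 arrays, which were on 1 slide and in 1 scan, and no spot was saturated. The T cell markers Cd3e (12.19 to 13.05) and Cd4 (10.07 to 11.60) were measured on every array. The targeted genes go in part against the genotype labels: at 3 h, log2 Nr4a1 was 11.34 in the WT array and 11.82 in the array labelled Nr4a-TKO, and Nr4a2 was 8.83 and 10.21. In naive T, Nr4a1 was 7.05 in the WT array and 8.39 in the array labelled Nr4a-TKO, and Nr4a2 was 6.24 and 6.44. Of the 3 Nr4a3 probes, NM_015743 and NM_001307989 differed by -1.86 and -1.47 at 3 h (Nr4a-TKO minus WT), and the third, ENSMUST00000154186, by 0.19. Which of these probes lie in deleted sequence is not given in the sources used here. Arrays are therefore named as labelled. The arrays hold bulk RNA, so fewer cells of a type and less RNA per cell cannot be told apart.

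Culture for 3 h went with more transcript of most of these genes in both genotypes. In WT cells, 5 of the 10 genes were more than 2-fold higher at 3 h, Nfkb1, Nfkb2, Rel, Nfkbid and Tnfaip3, against 8.43% of 23243 genes measured in that comparison. Bcl3 was more than 2-fold lower, against 8.57% of all genes. In the cells labelled Nr4a-TKO the same 5 genes were more than 2-fold higher, against 7.82% of 23729 genes, and none of the 10 was more than 2-fold lower, against 8.01%. The median log2 difference of the 10 genes was 1.05 in WT and 1.26 in Nr4a-TKO, where the medians over all genes were -0.05 and -0.02. A change above 0 was found for 9 of the 10 genes in each genotype, against 46.2% of all genes in WT and 48.6% in Nr4a-TKO. In WT these 9 include Nfkbiz at 0.03, while the mean of its probes was -0.52. By probe, 13 of the 20 measured were more than 2-fold higher in each genotype. These probes belong to the same 10 genes, and no share over all probes was computed.

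**Figure D1:**
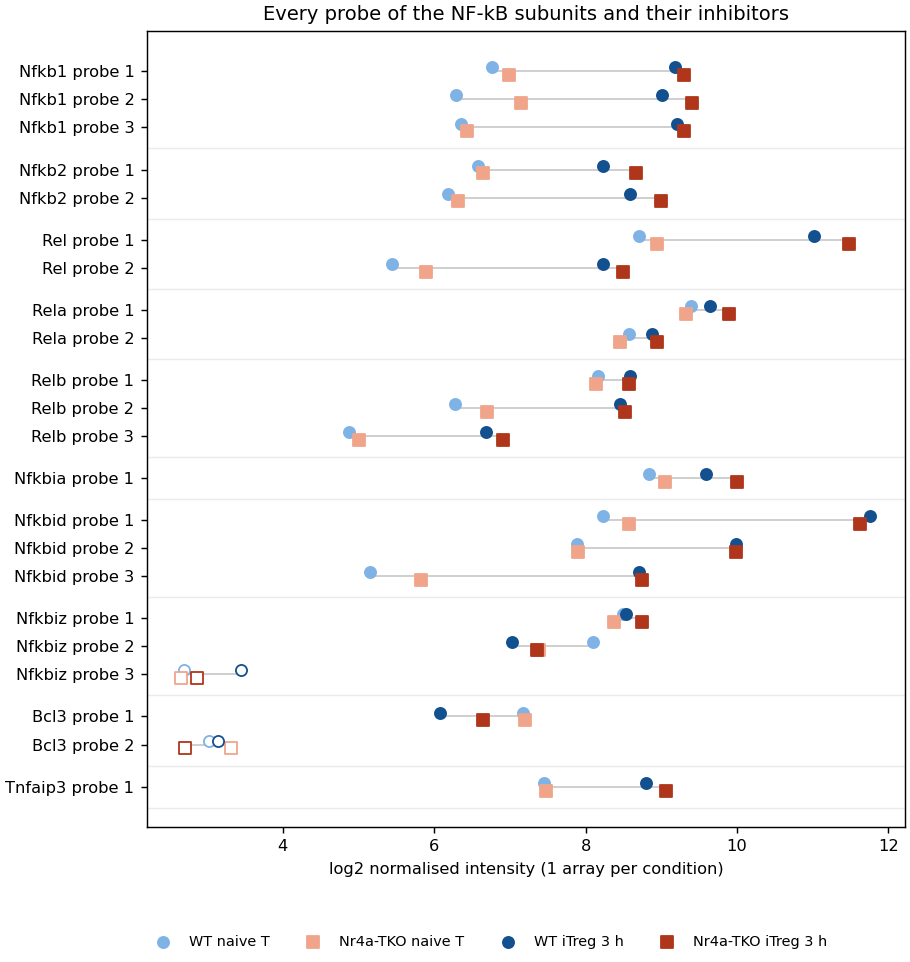
Log2 normalised intensity (horizontal axis) of each of the 22 probes on the 4 arrays, with circles for WT, squares for Nr4a-TKO, pale symbols for naive T and dark symbols for iTreg at 3 h. Open symbols mark values not well above background. Dark symbols lie clearly to the right of pale ones for Nfkb1, Nfkb2, Rel and Nfkbid and to the left for Bcl3 probe 1. The squares and circles of a stage lie close together on most probes. Pale ones are farther apart on Nfkb1 probe 2 (WT 6.29, Nr4a-TKO 7.14), Nfkbiz probe 2 (8.10 and 7.39) and Nfkbid probe 3 (5.15 and 5.82).

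Nfkb1 encodes p105, the precursor of the p50 subunit, which has no activation domain of its own. Its brightest probe (NM_008689, chr3:135254550-135254609 on mm9) was at 6.76 in WT naive T, 6.99 in Nr4a-TKO naive T, 9.18 in WT iTreg at 3 h and 9.30 in Nr4a-TKO iTreg at 3 h. Both cultured arrays were above both naive arrays. The change was 2.42 in WT (5.36-fold) and 2.31 in Nr4a-TKO (4.96-fold). The other probes gave 2.72 and 2.85 in WT and 2.25 and 2.86 in Nr4a-TKO. All Nfkb1 probes therefore changed by more than 4-fold in both genotypes, and Nfkb1 ranked 199th from the highest change among 23243 genes in WT.

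Nfkb2 encodes p100, which acts as an inhibitor of RelB until it is cut to p52 in the non-canonical arm. Its brightest probe (NM_019408, chr19:46386146-46386285 on mm9) was at 6.58 in WT naive T, 6.65 in Nr4a-TKO naive T, 8.23 in WT iTreg at 3 h and 8.66 in Nr4a-TKO iTreg at 3 h. The naive arrays were close to each other, and the cultured arrays were higher, with Nr4a-TKO highest. The change was 1.65 in WT (3.13-fold) and 2.01 in Nr4a-TKO (4.02-fold). The second probe changed by more, 2.42 and 2.69.

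Rel encodes c-Rel, the subunit that T cells need for Il2 transcription and for the development of regulatory T cells. Its brightest probe (NM_009044, chr11:23641729-23641788 on mm9) was at 8.71 in WT naive T, 8.95 in Nr4a-TKO naive T, 11.02 in WT iTreg at 3 h and 11.48 in Nr4a-TKO iTreg at 3 h. As for Nfkb1 and Nfkb2, both cultured arrays were above both naive ones. The change was 2.31 in WT (4.97-fold) and 2.54 in Nr4a-TKO (5.81-fold), and the second probe gave 2.79 and 2.60.

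Rela encodes the p65 subunit, the main activating partner of p50. Its brightest probe (NM_009045, chr19:5645363-5645529 on mm9) was at 9.39 in WT naive T, 9.33 in Nr4a-TKO naive T, 9.64 in WT iTreg at 3 h and 9.90 in Nr4a-TKO iTreg at 3 h. The 4 values spanned a much narrower range than those of c-Rel. The change was 0.26 in WT (1.19-fold) and 0.56 in Nr4a-TKO (1.48-fold), and 0.31 and 0.50 on the second probe. Rela is the gene whose promoter window held no match to the NF-kB consensus. Whether this bears on its change was not tested.

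Relb encodes the subunit that pairs with p52 in the non-canonical arm, and its probes disagreed. The brightest (ENSMUST00000148040, chr7:20203058-20203117 on mm9) was at 8.17 in WT naive T, 8.14 in Nr4a-TKO naive T, 8.59 in WT iTreg at 3 h and 8.58 in Nr4a-TKO iTreg at 3 h, a change of 0.41 and 0.44. The probe of NM_009046 (chr7:20191722-20191781) was at 6.27, 6.70, 8.46 and 8.52 on the same arrays, a change of 2.18 (4.54-fold) in WT and 1.81 (3.52-fold) in Nr4a-TKO. The probe of NM_001290457 lies beside it and changed by 1.79 and 1.91. Relb thus passed 2-fold on both RefSeq transcript probes and not on the brightest probe, which is the probe counted above. With all probes averaged, the change of Relb was 1.46 in WT and 1.39 for Nr4a-TKO, which makes 6 of the 10 genes more than 2-fold higher. Which transcripts of Relb these cells make was not tested.

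Nfkbia encodes IkBα, which binds RelA and c-Rel dimers and which NF-kB itself induces. Its probe (NM_010907, chr12:56590945-56591440 on mm9) was at 8.84 in WT naive T, 9.05 in Nr4a-TKO naive T, 9.59 in WT iTreg at 3 h and 10.00 in Nr4a-TKO iTreg at 3 h. The change was below 2-fold in both genotypes, 0.75 in WT (1.68-fold) and 0.95 in Nr4a-TKO (1.93-fold). In Nr4a-TKO this was just under the threshold, and it was 1.15 when the arrays were scaled to their 75th percentile. Both cultured arrays were above both naive arrays.

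The nuclear IkB proteins differed most among themselves. Nfkbid encodes IkBNS, which acts in the nucleus on p50 dimers and takes part in the induction of Foxp3. Its brightest probe (NM_172142, chr7:31213705-31213764 on mm9) was at 8.23 in WT naive T, 8.57 in Nr4a-TKO naive T, 11.76 in WT iTreg at 3 h and 11.63 in Nr4a-TKO iTreg at 3 h. The change was 3.54 in WT (11.6-fold) and 3.06 in Nr4a-TKO (8.35-fold), the highest of the 10 genes in both genotypes and the 28th from the highest of 23243 genes in WT. The other probes gave 2.11 and 3.57 in WT and 2.09 and 2.93 in Nr4a-TKO, so the size depended on the probe and the direction did not.

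Nfkbiz encodes IkBζ, a nuclear protein that can activate some NF-kB targets. Its brightest probe (NM_030612, chr16:55812091-55812150 on mm9) was at 8.50 in WT naive T, 8.38 in Nr4a-TKO naive T, 8.53 in WT iTreg at 3 h and 8.75 in Nr4a-TKO iTreg at 3 h. This is a change of 0.03 in WT and 0.37 in Nr4a-TKO. A second probe of the same transcript (chr16:55817859-55817918) was at 8.10, 7.39, 7.03 and 7.36. There WT naive T was the highest array and the other arrays lay together, which made a change of -1.06 in WT and -0.03 in Nr4a-TKO. The direction of Nfkbiz in WT therefore depended on the probe, and the mean of both was -0.52.

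Bcl3 encodes a nuclear IkB protein that binds p50 and p52 dimers. Its measured probe (NM_033601, chr7:20393826-20393885 on mm9) was at 7.17 in WT naive T, 7.20 in Nr4a-TKO naive T, 6.07 in WT iTreg at 3 h and 6.65 in Nr4a-TKO iTreg at 3 h. Of the 10 genes only Bcl3 was lower in both cultures on its representing probe. The change was -1.10 in WT (2.15-fold lower) and -0.56 in Nr4a-TKO (1.47-fold lower). The value in WT was close to the threshold, and with no background correction it was -0.93. Bcl3 lies 0.19 Mb from Relb on chromosome 7 by the positions of their probes on mm9, and their representing probes moved in opposite directions in both genotypes.

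Tnfaip3 encodes A20, a brake on the IkB kinases. Its probe (NM_009397, chr10:18720776-18720835 on mm9) was at 7.45 in WT naive T, 7.48 in Nr4a-TKO naive T, 8.80 in WT iTreg at 3 h and 9.06 in Nr4a-TKO iTreg at 3 h. The naive arrays were nearly equal and both cultured arrays were higher. The change was 1.35 in WT (2.55-fold) and 1.58 in Nr4a-TKO (2.98-fold).

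**Figure D2:**
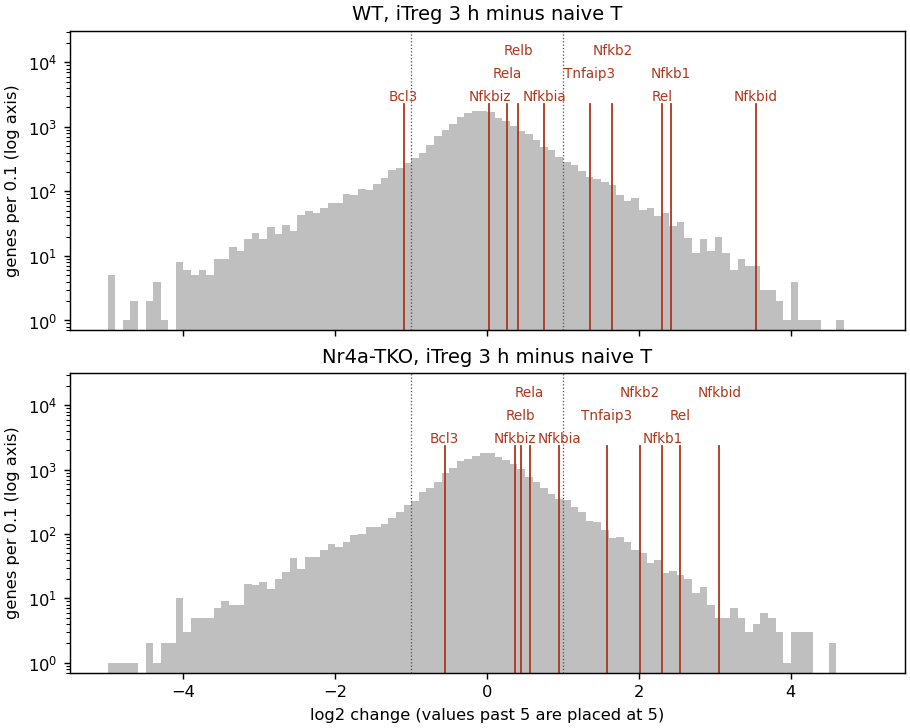
Number of genes (log axis) by log2 change with culture (iTreg at 3 h minus naive T), in WT above and in Nr4a-TKO below, with a red line for each of the 10 genes and dotted lines at 2-fold. Nfkbid, Nfkb1, Rel, Nfkb2 and Tnfaip3 lie beyond 2-fold on the right in both panels, and Bcl3 lies beyond 2-fold on the left in WT (-1.10) and inside it in Nr4a-TKO (-0.56).

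The genes whose course over the 4 arrays was most like that of a member were found among 15626 genes well above background on all arrays, by the root mean square of the differences between centred log2 values. For Nfkb1, the subunit with the largest change in WT, these were Pno1 (0.03), Pa2g4 (0.07) and Trib1 (0.07). Rel changed by more than Nfkb1 with a normexp offset of 50 (2.18 against 1.99) and with no background correction (2.26 against 2.23). For Nfkbid they were Slamf1 (0.06), Gadd45b (0.08) and Gfi1 (0.11). With 4 arrays such likeness is a description of levels alone.

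In naive cells the 10 genes differed little between the genotypes. None was more than 2-fold higher in Nr4a-TKO naive T than in WT naive T, against 1.92% of 23125 genes, and none was more than 2-fold lower, against 1.68%. The differences ranged from -0.13 for Nfkbiz to 0.34 for Nfkbid, with a median of 0.05 beside -0.02 over all genes, and 7 of the 10 were above 0, against 47.2% of all genes. Single probes went further: the Nfkb1 probe of ENSMUST00000138602 was 0.86 higher, at 7.14 against 6.29, and the Nfkbid probe of ENSMUST00000108176 was 0.67 higher, at 5.82 against 5.15. The second Nfkbiz probe differed by -0.71, at 7.39 against 8.10. The other probes of these 3 genes did not show differences of that size.

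At 3 h the differences between the genotypes were small again, and most were above 0. None of the 10 genes was more than 2-fold higher in Nr4a-TKO iTreg than in WT iTreg, against 1.74% of 23516 genes, and none was more than 2-fold lower, against 1.94%. A difference above 0 was found for 8 of the 10 genes, against 50.4% of all genes, and the median was 0.25 beside 0.0 over all genes. By probe, 17 of the 20 were above 0, but these probes belong to the same 10 genes and no share over all probes was computed. The largest was Bcl3, 0.58 higher in Nr4a-TKO (1.5-fold), which placed it above 94.6% of all genes. Rel (0.46), Nfkb2 (0.42) and Nfkbia (0.41) followed. This order depended on the background correction: with a normexp offset of 50 Bcl3 was at 0.36, below Rel (0.45), Nfkbia (0.39) and Nfkb2 (0.37). Nfkbid (-0.13) and Relb (-0.01) were the 2 genes below 0, both by less than the SD from repeated spots. The signs for all 10 genes were the same under each of the 5 scalings tried, in each of the 4 comparisons.

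**Figure D3:**
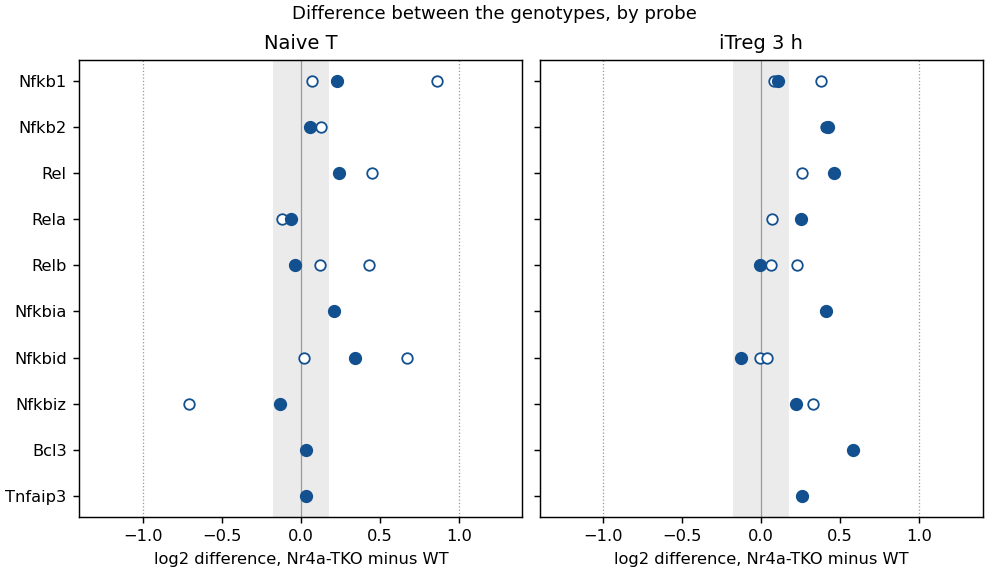
Log2 difference of Nr4a-TKO minus WT (horizontal axis) in naive T and in iTreg at 3 h, with filled circles for the probe representing a gene and open circles for its other probes. Dotted lines mark 2-fold and the grey band 1 SD of a difference, from repeated spots within an array (0.173). No probe reaches 2-fold at either stage, and at 3 h the representing probes lie between -0.13 and 0.58.

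The change with culture was then compared between the genotypes as the change in Nr4a-TKO minus the change in WT. On representing probes it was above 0 for 8 of the 10 genes, against 51.9% of 22249 genes, with a median of 0.22 beside 0.02. The probes disagreed in sign for Nfkb1 (-0.11, -0.47 and 0.01), Rel (0.22 and -0.19) and Relb (0.03, -0.37 and 0.11). With the mean of all probes, 3 of the 10 genes were below 0. For 5 of the 10 genes the difference between the changes was past 0.245, the SD from repeated spots, against 46.6% of all genes. By that measure the genes were near the background. These 5 were Bcl3 (0.55), Nfkb2 (0.36), Nfkbiz (0.34), Rela (0.31) and Nfkbid (-0.47). Among them the probes of Nfkb2 (0.36 and 0.27) and Rela (0.31 and 0.19) were alike, those of Nfkbiz were 0.34 and 1.03, and those of Nfkbid were -0.47, -0.02 and -0.64. The lower change of Nfkbid in Nr4a-TKO lay more in the naive arrays, where Nr4a-TKO was higher by 0.34, 0.02 and 0.67 on its 3 probes, than in the cultured arrays, where the differences were -0.13, -0.01 and 0.04. For Bcl3 it was the reverse: the naive arrays differed by 0.03 and the cultured arrays by 0.58.

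**Figure D4:**
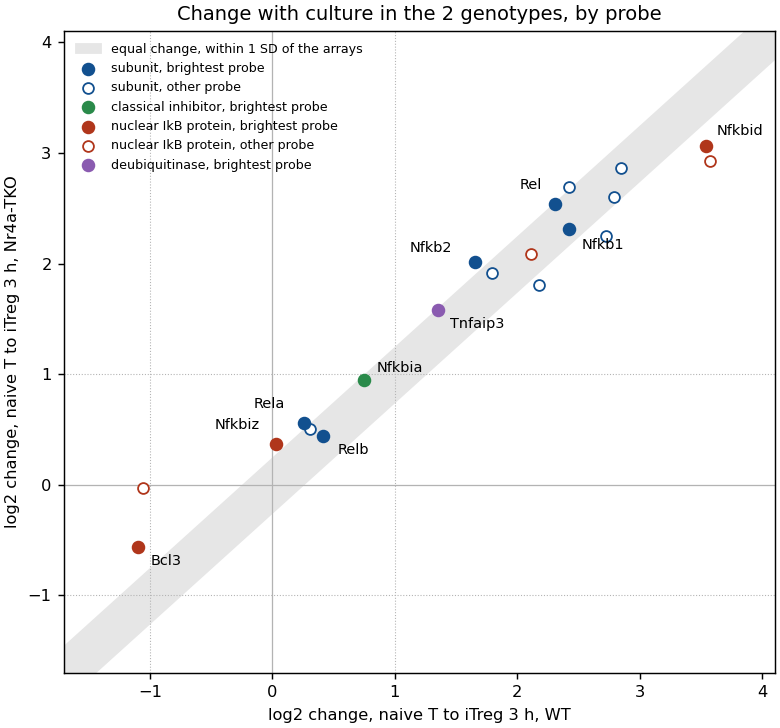
Log2 change with culture (iTreg at 3 h minus naive T) in WT (horizontal axis) and in Nr4a-TKO (vertical axis) for each measured probe, coloured by the role of the gene, with filled circles for representing probes. The grey band holds equal changes within 1 SD from repeated spots within an array (0.245) and dotted lines mark 2-fold. In all, 10 of the 20 probes lie in the band, and the farthest from it are the second Nfkbiz probe (1.03 above equal change), an Nfkbid probe (-0.64) and Bcl3 (0.55).

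Most markers of B cells were higher on the arrays labelled Nr4a-TKO at both stages. On representing probes, all 6 of the B cell list, Cd79a, Cd79b, Ms4a1, Cd74 and H2-Aa among them, were well above background on each array. Of these, 5 of 6 were higher in Nr4a-TKO naive T, all but Cd79b (-0.56). In Nr4a-TKO iTreg at 3 h, 6 of 6 were higher. The log2 of their summed level was 9.94 in WT naive T, 10.51 in Nr4a-TKO naive T, 9.41 in WT iTreg at 3 h and 10.24 in Nr4a-TKO iTreg at 3 h. At 3 h, H2-Aa differed by 1.34, Cd79a by 1.14 and Ms4a1 by 0.07. The other Ms4a1 probe (NM_007641) was not well above background on any array. The part of the B cell markers in the small differences of the NF-kB genes was not tested. Of the myeloid list, Lyz2 lay between 3.79 and 4.27 on the 4 arrays, and the Cd14 probes disagreed: in WT naive T the brighter was at 6.66, above its 3.77 to 4.58 on the other arrays, while the other, at 3.47, was not well above background. The summed level of that list is set by a bright probe of Itgam (15.06 in WT naive T), and was between 15.08 and 15.28. The second Itgam probe lay between 4.71 and 6.25. Csf1r, of the same list, lay between 11.16 and 11.76 on the 4 arrays, and between 6.18 and 6.40 on its second probe. Of 8 control genes none differed by more than 2-fold in any comparison.

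The other genes of the pathway were read from lists that named them by role. Of 34 genes 33 were measured, all but the A20 partner Tnip3, which was not well above background. In WT 5 of the 33 were more than 2-fold higher at 3 h and 3 were more than 2-fold lower, and in Nr4a-TKO 6 and 3, shares that can be read beside the 8.43% and 8.57% of all genes in WT and the 7.82% and 8.01% in Nr4a-TKO. The median change was 0.15 in both genotypes, below that of the 10 genes. Between the genotypes none of the 33 passed 2-fold at either stage on its representing probe. By probe, 1 of Traf6 (AK083275) was higher in Nr4a-TKO naive T (1.21) and 1 of Map3k7 (NM_172688) was lower in Nr4a-TKO at 3 h (-1.25).

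Among the other IkB proteins, Nfkbib, which encodes the classical inhibitor IkBβ, was more than 2-fold higher after culture in both genotypes (1.49 in WT, 1.46 in Nr4a-TKO). Nfkbie, which encodes IkBε, was at 6.35 and 6.86 in the naive arrays of WT and Nr4a-TKO and at 7.32 and 7.83 after culture, a change of 0.97 in both. Of the kinases, Chuk, Ikbkb and Ikbkg, the core of the IkB kinase complex, changed by between -0.80 and 0.47 over all their probes, and the related kinase Ikbke was lower, with changes of -2.15 (WT) and -2.02 (Nr4a-TKO). In the path from the T cell receptor, Malt1, a protease that acts with BCL10, was higher by 1.84 in WT and 2.31 in Nr4a-TKO. All 4 Malt1 probes were more than 2-fold higher in each genotype, while the probes of Bcl10 disagreed in direction (0.53 and -0.83 in WT).

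Some pathway genes passed 2-fold in WT or in Nr4a-TKO alone on their representing probes, in part with probes that disagreed. Prkcq, which encodes protein kinase C-θ, was at 9.56 in WT naive T, 9.42 in Nr4a-TKO naive T, 8.77 in WT iTreg and 7.80 in Nr4a-TKO iTreg, and its difference between the genotypes at 3 h, -0.96, was the lowest of the 33 representing probes. The other Prkcq probes gave -0.88 and -0.96. Otulin, which encodes a deubiquitinase for linear ubiquitin chains, was at 8.38, 8.24, 8.53 and 9.39, and its difference at 3 h, 0.86, was the highest of these. The ubiquitin ligase gene Traf6 changed by 1.30 in Nr4a-TKO against 0.49 in WT, but another of its probes gave 0.24 against 1.02. The remaining Traf6 probes gave 0.81 to 1.06 in Nr4a-TKO against 0.75 to 0.78 in WT. The kinase gene Map3k7 changed by 1.09 in WT against 0.60 in Nr4a-TKO. Its other probes gave 1.13 against 0.63, and 0.97 against 0.94. Cyld, which encodes another deubiquitinase, changed by -1.14 in WT against -0.88 for Nr4a-TKO, and 2 of its 3 other probes were more than 2-fold lower in both genotypes. Rnf11 (1.12 and 1.47) and Birc3 (1.13 and 1.12), the latter encoding the ubiquitin ligase cIAP2, were more than 2-fold higher in both, though 1 of the 4 Birc3 probes was at 0.98 in Nr4a-TKO. Whether these changes differ between the genotypes could not be tested with 1 array each.

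**Figure D5:**
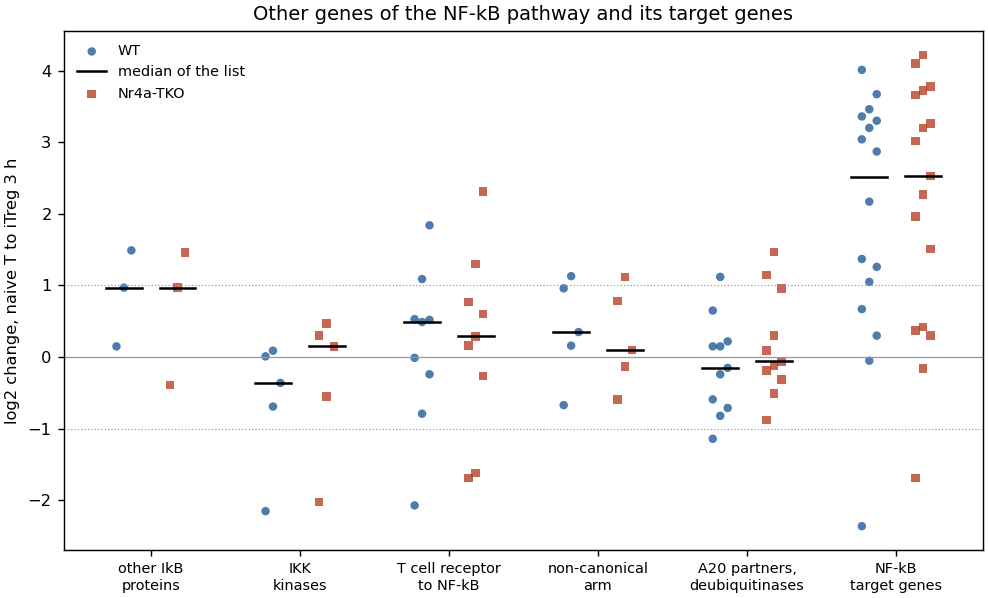
Log2 change with culture (iTreg at 3 h minus naive T) of each measured gene in 5 lists of the pathway and in a list of NF-kB target genes, with circles for WT, squares for Nr4a-TKO and bars for the median of a list. Dotted lines mark 2-fold. The target genes have medians of 2.52 and 2.53, while those of the pathway lists lie between -0.36 and 0.97.

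A list of 20 genes known as NF-kB targets in lymphocytes was read in the same way. Of 16 measured in WT, 12 were more than 2-fold higher at 3 h and 1, the transcription factor gene Irf1, was lower (-2.36), beside the 8.43% and 8.57% of all genes. In Nr4a-TKO 12 of 17 were higher and Irf1 was lower (-1.69), beside 7.82% and 8.01%. Il2ra, which encodes the IL-2 receptor α chain, was not among the 12 on its brightest probe (AK041350, 0.30 in WT and 0.42 in Nr4a-TKO), while its RefSeq probe (NM_008367) was higher by 4.94 and by at least 5.37. The medians were 2.52 and 2.53. Between the genotypes at 3 h, 5 of 17 were more than 2-fold higher in Nr4a-TKO, namely the growth factor gene Il2 (1.20), the cytokine gene Lta (1.13), the survival gene Bcl2l1 (1.12), Cd83 (1.28) and the chemokine gene Ccl4 (1.22), beside the 1.74% of all genes. For Il2 and Bcl2l1 this rested on the probe: the other Il2 probe gave 0.97 and the other 4 Bcl2l1 probes 0.68 to 0.88. Tnfrsf9, which encodes the co-stimulatory receptor 4-1BB, was lower in Nr4a-TKO at both stages, with differences of -1.86 in naive T and -3.60 at 3 h, and of -0.50 and -3.04 on its second probe. The median difference of the list at 3 h was 0.47, against 0.25 for the NF-kB genes themselves. Many of these targets also respond to other factors of activated T cells, and the part of NF-kB in their levels was not tested.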

How the data were processed

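RNA of naive T cells and of iTreg cells at 3 h, from WT and from Nr4a-TKO, was hybridised to single-colour Agilent mouse arrays, with 1 array per group and 4 in all. Groups follow the labels. The authors deposited Agilent Feature Extraction 11.5.1.1 output with the intensity and local background of each spot, and a value table on the log2 scale. The methods name RMA, while the deposited log2 table proved equal to log2 of the processed intensity shifted to put each array's 75th percentile at 0 (SD of the shift over probes 0.0029). Intensities were corrected by normexp (offset 0) and quantile-normalized with limma 3.58.1 in R 4.3.3, read with the package data.table (1.17.8), and averaged over spots of a probe, without control spots and the 115 to 160 spots with an outlier flag. Python 3.11.15, pandas 2.3.3, numpy 2.4.6 and matplotlib 3.10.9 did the rest.

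The median spot intensity was between 44.8 and 45.4 and its background between 20 and 21, and the number of arrays limits the precision. Names follow RefSeq (GRCm38.p6). Of 56605 probes, 41700 had a symbol in use, 1517 were matched by transcript, 519 by synonym, 8038 keep only their file name, and 4831 are unnamed. Probe positions are those of the files, on mm9, and whether a probe lies in an exon or UTR was not analysed here. Values not well above background were raised to that array's floor, the lowest well-above-background value (3.07 to 3.45), where they lay below it. Differences needed 1 array of both to be well above background. Calls used 2-fold, and the counting was tested on simulated 4-fold changes of probes well above background, which leaves changes near 2-fold untested. The alternatives were other scalings, background corrections, filters, thresholds, the deposited values and the mean of all probes. The members and the gene lists were chosen with earlier results of these data known. The 10 members were named with every probe, list genes where they passed 2-fold, were at an end of their list or were markers, and the 3 most alike genes for the subunit and the inhibitor with the largest change in WT. Marker lists of naive CD4 T, B, myeloid, CD8 T and erythroid cells were read. Some genes of the lists enter their counts and are not reported here by name.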

Additional observations from a re-analysis of the deposited data

How the results depend on the processing

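The counts of the 10 genes more than 2-fold higher or lower were recomputed at thresholds of 1.5-fold and 3-fold, with 2 other filters on dim probes, with all probes of a gene averaged, from the deposited values, from the processed intensity scaled to its 75th percentile, and with no background correction or an offset of 50 in it. The count more than 2-fold lower in WT at 3 h, which is Bcl3 alone, fell from 1 to 0 with the offset of 50 (-0.73), with no background correction (-0.93) and at 3-fold. The counts higher with culture were between 4 and 6 in each genotype, against 5. The counts between the genotypes, and the count lower with culture in Nr4a-TKO, stayed at 0. The median difference between the changes was 0.21 with the mean of all probes and 0.22 otherwise. Values of single genes were less stable: in the deposited values the change in WT was 2.53 for Rel, against 2.31, and 0.47 for Rela, against 0.26. Relb joined the genes more than 2-fold higher with the mean of all probes (1.46 in WT, 1.39 in Nr4a-TKO), and Nfkbia did so in Nr4a-TKO after scaling to the 75th percentile (1.15) and in the deposited values (1.16). Single values with the mean of all probes, or with other filters on dim probes, were added after the data were seen. With the mean of all probes the difference of Nfkbiz in WT turned from 0.03 to -0.52, and that of Relb between the naive arrays from -0.04 to 0.17. Over all genes the counts were lower with the offset of 50: in WT, 963 passed 2-fold upward with culture and 939 downward, against 1960 and 1992, and in Nr4a-TKO 852 and 819, against 1855 and 1901. With no background correction these counts were 1330 and 1328 in WT and 1228 and 1202 in Nr4a-TKO. Scaling to the 75th percentile put the median change of all genes in WT at -0.11, against -0.05. No paired analysis was possible because each group has 1 array and no test was run. With 1 array each, an effect of an array cannot be told apart from that of its condition.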

Other observations

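Most naive CD4 T cell markers were lower after culture in both genotypes on these arrays: 5 of 7 were more than 2-fold lower in WT and 6 of 7 in Nr4a-TKO, against 8.57% and 8.01% of all genes. Il7r, the receptor chain for IL-7, was at 10.81 in WT naive T, 10.49 in Nr4a-TKO naive T, 7.79 in WT iTreg at 3 h and 7.72 in Nr4a-TKO iTreg at 3 h. It was lower on both cultured arrays than on both naive arrays, while Nfkb1, Nfkb2, Rel, Nfkbid and Tnfaip3 were higher there. Between the genotypes at 3 h the 7 markers differed by -0.63 to -0.07, all lower in Nr4a-TKO. Of the CD8 T cell markers Cd8a lay between 3.71 and 4.30 and Cd8b1 between 5.94 and 6.93. Of the erythroid markers Hbb-b1 was not well above background on any array, and Alas2 lay between 4.57 and 5.45.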
